A study of Mus musculus with 16 samples.

Results

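The 7 genes described here encode scavenger and clearance receptors of macrophages, namely Mrc1, Msr1, Cd163, Folr2, Stab1, Mertk and Axl. They were chosen by symbol and make up 7 of the 24495 gene symbols in the count tables, and they were read in macrophages, monocytes and dendritic cells of CD45+ (leukocyte) single-cell libraries. MC38, a colon adenocarcinoma line derived from C57BL/6 mice, was grown in 8-week-old female C57BL/6 littermates with the Aire gene (Aire+/+) or without it (Aire-/-). Mice of each genotype received anti-PD1 antibody (clone RMP1-14) or isotype control antibody (clone 2A3) at 5 mg/kg from day 0 to day 14, and tumors and spleens were taken at day 19. Tumors of 4 to 6 mice were pooled within each condition, as were spleens, and each pool gave 1 CD45+ library, so 8 of the 16 libraries of the series are used and no condition had a replicate library. The mouse is therefore not a unit that these values can resolve, and all intervals below are 95% intervals for counting error alone.

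Macrophages take up modified lipoproteins, glycoproteins, haemoglobin complexes and dying cells through surface receptors of several unrelated families. In tumors these receptors are widely used to mark macrophages with a tissue-resident or alternatively activated character, and the TAM kinases Mertk and Axl bind phosphatidylserine on dead cells through the bridging proteins Gas6 and Pros1. Circulating monocytes feed the tumor macrophage pool and switch on many of these genes as they differentiate.

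Aire itself, the gene deleted in the mice, was close to absent in all libraries. In tumors, 0 UMIs (unique molecular identifiers, that is, counted transcripts) were found in Aire+/+ isotype, 2 in Aire+/+ anti-PD1, 1 in Aire-/- isotype and 0 in Aire-/- anti-PD1. In spleens the counts were 2, 5, 4 and 0 in the same order. A tag at the 3′ end of a transcript can lie outside the deleted stretch, so these counts check neither genotype. Each pair of the 8 libraries shared between 3 and 16 cell barcodes over 28 pairs.

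The 4 tumor libraries held 38930018 UMIs in 2930 cells (Aire+/+ isotype), 28760725 in 2208 cells (Aire+/+ anti-PD1), 24639380 in 1856 cells (Aire-/- isotype) and 23282801 in 2075 cells (Aire-/- anti-PD1). Median UMIs per cell were 11892, 11858.5, 12251.5 and 9889 in that order, which is used for all runs of 4 values below. The spleen libraries were shallower, with 12131829, 10927395, 11179230 and 12618100 UMIs in 2095, 2088, 2023 and 2393 cells.

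A cell was called a macrophage when it held at least 5 UMIs of the complement genes C1qa, C1qb and C1qc together, and monocytes and dendritic cells were taken from the remaining cells by their own marker genes. Macrophages made up 41.7% of the tumor library in Aire+/+ isotype (1222 cells), 37.0% in Aire+/+ anti-PD1 (817 cells), 31.6% in Aire-/- isotype (586 cells) and 11.7% in Aire-/- anti-PD1 (242 cells). Tumor macrophages were thus scarcest in the Aire-/- anti-PD1 library, where T cells made up 45.1% of cells against 12.0%, 17.1% and 18.4% in the other 3. Monocytes numbered 858, 575, 522 and 405. Macrophage libraries summed to 19183839, 12733120, 9321955 and 2962501 UMIs, and the median macrophage held 14572.5, 14628, 14095.5 and 11362 UMIs.

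The gate was checked against marker lists, given as UMIs summed over the gated cells and scaled to 1000000 UMIs of those cells (CPM). All 6 genes of the macrophage list were detected in each tumor library, with Apoe the most abundant, and their sum was 6843, 8208, 5769 and 4315 CPM. All 9 monocyte markers were also detected, summing to 2706, 3273, 4711 and 5724 CPM, with Ly6c2 the most abundant. The median macrophage held 127, 131, 111.5 and 57 C1q UMIs. The Aire-/- anti-PD1 macrophages therefore had the lowest C1q and macrophage-marker level and the highest monocyte-marker level.

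Lymphoid transcripts in the macrophage gate also moved with condition. The 4 T-cell markers, all detected, summed to 49.9, 19.9, 79.6 and 250.5 CPM, with Cd3d, Cd3e, Cd3d and Cd3g the most abundant. The 3 NK markers, all detected and led by Gzma, summed to 7.87, 8.25, 17.6 and 165 CPM. Cells with at least 2 lymphoid UMIs made up 12.0%, 12.6%, 11.8% and 16.9% of macrophages. The Aire-/- anti-PD1 macrophages stood apart on these lists as well, and the part that monocyte-like or lymphoid RNA plays in the receptor values below was not tested.

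Markers of other lineages were also summed in the macrophage gate. The 4 mature dendritic markers, led by Ccr7, summed to 22.4, 16.9, 43.4 and 136 CPM, and the 4 type 2 dendritic markers, led by Sirpa, to 426, 489, 429 and 377.0 CPM. Type 1 dendritic markers, led by Irf8, summed to 235, 220, 306 and 304 CPM, and plasmacytoid markers, led by Bst2, to 977, 1225, 1043 and 801 CPM, with Siglech at 0 in both Aire-/- libraries. Mature dendritic genes were thus highest in Aire-/- anti-PD1, as the T-cell and NK ones were. Neutrophil markers (5 genes) summed to 121, 103, 155 and 86.1 CPM with Retnlg at 0 in Aire-/- anti-PD1, and B-cell markers (4 genes, led by Cd79b) to 27.6, 31.0, 18.8 and 18.6 CPM. Fibroblast markers (4 genes) stayed at 3.49, 4.79, 4.51 and 2.70 CPM, with Col1a2 at 0 in Aire-/- anti-PD1. Endothelial markers (3 genes, led by Kdr or Pecam1) summed to 19.0, 29.4, 35.3 and 35.8 CPM. Epithelial tumor markers (3 genes) were near 0 at 0.469, 0.236, 0.644 and 1.01 CPM, led by Epcam, with Krt8 at 0 in all 4 libraries.

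Msr1, the class A scavenger receptor for modified lipoproteins, had the highest level of the 7 in tumor macrophages on the scale of 3′ UMI counts, which are not divided by transcript length. Its level was 273 CPM (266–280) in Aire+/+ isotype, 217 (209–225) in Aire+/+ anti-PD1, 272 (261–283) in Aire-/- isotype and 227 (210–245) in Aire-/- anti-PD1. Both isotype libraries were higher than both anti-PD1 libraries, with intervals that did not overlap. At least 1 Msr1 UMI was found in 84.3%, 81.9%, 85.2% and 76.9% of macrophages. In T cells of the same tumors, whose median depth was 8606, 7696, 9205 and 8390.5 UMIs, the share was 5.98%, 2.12%, 4.39% and 1.39%. Msr1 thus lay far above the T-cell background in each library. The few tumor B cells (46 over the 4 libraries) held more of it, at 87.9 CPM (64.6–117) with a UMI in 32.6% of cells. Thinning every cell to 3000 UMIs, which left no tumor macrophage out, gave 50.1%, 43.3%, 47.8% and 44.6% of macrophages and 2.56%, 0.796%, 2.05% and 0.641% of T cells.

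Mrc1, the mannose receptor CD206, was detected in a minority of macrophages. It was at 35.6 CPM (33.0–38.4), 34.1 (31.0–37.4), 29.9 (26.5–33.7) and 31.4 (25.3–38.5). The intervals of Aire-/- anti-PD1 overlapped those of the other 3 libraries. Mrc1 was detected in 20.9% (95% Clopper-Pearson interval 18.6–23.3), 22.4% (19.6–25.4), 19.1% (16.0–22.5) and 14.5% (10.3–19.5) of macrophages, and after thinning in 6.55%, 6.73%, 5.80% and 6.20%. The T-cell share was 1.42%, 0%, 0.877% and 0.107%, and 0% in all 4 after thinning. The unthinned share was lowest in the shallower Aire-/- anti-PD1 macrophages, while the thinned shares lay within a narrow range. The tenth of macrophages with most Mrc1 held 77.5%, 74.0%, 79.6% and 88.2% of its UMIs, against 32.3%, 32.1%, 35.5% and 32.5% for Msr1, a share that is larger for any gene found in fewer cells. No macrophage held more than 15 Mrc1 UMIs.

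Cd163, the receptor for haptoglobin-haemoglobin complexes, was all but absent from tumor macrophages. Its counts were 1, 1, 0 and 0 UMIs, and the upper limits for the Aire-/- libraries were 0.396 and 1.25 CPM. A count of 0 allows a share with a detected UMI of up to 0.512% of macrophages in Aire-/- isotype and 1.24% in Aire-/- anti-PD1 (3 counts of the cells), and sets no limit on cells that express the gene without a captured UMI. Its macrophage ratios are not given, as they rest on these counts. Whole tumor libraries held 13, 5, 13 and 15 Cd163 UMIs, most of them outside the macrophage gate.

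Folr2, the beta folate receptor, showed the widest span of the 6 receptors with enough counts. It gave 249, 151, 111 and 4 UMIs, or 13 CPM (11.4–14.7), 11.9 (10.0–13.9), 11.9 (9.80–14.3) and 1.35 (0.368–3.46). The first 3 libraries overlapped one another, and Aire-/- anti-PD1 lay below all of them. Folr2 was detected in 10.6% (8.89–12.4), 7.59% (5.87–9.62), 9.73% (7.45–12.4) and 1.65% (0.452–4.18) of macrophages, and after thinning in 3.03%, 2.57%, 2.73% and 0.826%. Its T-cell share was 0.285%, 0%, 0.292% and 0%, so that the Aire-/- anti-PD1 macrophages came nearer to the T-cell background than the others did. Those 4 UMIs came from 4 cells with 1 UMI each, whereas the highest cell in the other libraries held 11, 9 and 8.

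Stab1, stabilin-1, takes up acetylated lipoprotein and the matrix protein SPARC. Its level was 66.3 CPM (62.7–70.1), 61.3 (57.1–65.8), 54.3 (49.7–59.2) and 42.2 (35.1–50.3). The Aire-/- anti-PD1 library was lowest, and its interval overlapped only that of Aire-/- isotype. Stab1 was found in 53.1%, 50.1%, 46.4% and 36.0% of macrophages, and in 17.1%, 14.1%, 14.5% and 11.6% after thinning. T cells carried it in 8.26%, 4.51%, 2.34% and 0.641%, and in 3.42%, 0.796%, 0.585% and 0.107% after thinning.

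Mertk, a TAM kinase that mediates engulfment of dying cells, was sparse. It gave 135, 128, 67 and 11 UMIs, or 7.04 CPM (5.90–8.33), 10.1 (8.39–12.0), 7.19 (5.57–9.13) and 3.71 (1.85–6.64). Aire+/+ anti-PD1 was highest and Aire-/- anti-PD1 lowest, and the interval of the lowest overlapped those of both isotype libraries. Mertk was detected in 9.74%, 12.9%, 10.6% and 4.13% of macrophages, and in 2.45%, 3.30%, 2.05% and 1.65% after thinning. T cells held it in 0%, 0.265%, 0.292% and 0%, with 0% allowing up to 0.855% with a detected UMI in Aire+/+ isotype and 0.321% in Aire-/- anti-PD1.

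Axl, the TAM kinase bound by Gas6, had the second highest level of the 7 on the same scale of 3′ UMI counts. Its level was 125 CPM (120–130), 187 (180–195), 163 (154–171) and 141 (128–155). Aire+/+ anti-PD1 was highest and Aire+/+ isotype lowest, with Aire-/- isotype between them, clear of both. Axl was detected in 66.0%, 74.3%, 70.5% and 62.8% of macrophages, and in 26.1%, 37.6%, 35.7% and 31.0% after thinning. Its share in T cells was the highest of the 7 genes, at 17.7%, 10.3%, 15.8% and 10.8%, and 7.98%, 4.77%, 4.97% and 4.49% after thinning. The origin of these T-cell UMIs was not tested.

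**Figure D1:**
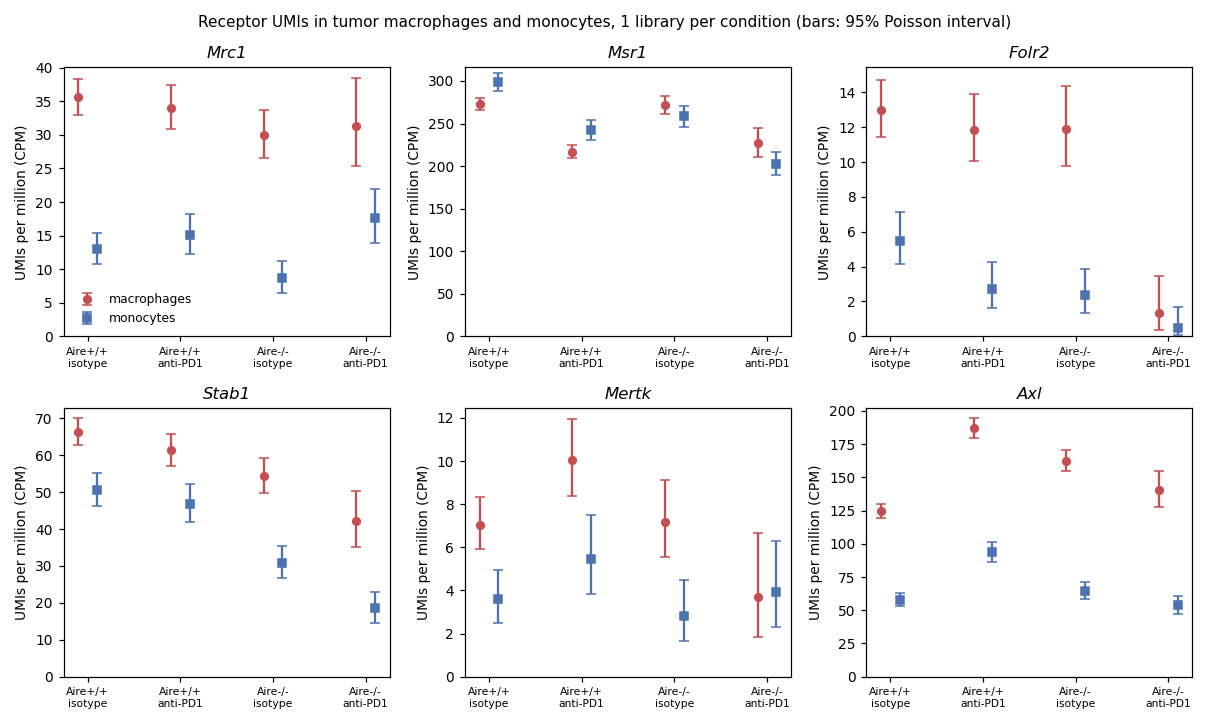
Levels of Mrc1, Msr1, Folr2, Stab1, Mertk and Axl in UMIs per 1000000 UMIs of the gated cells (vertical axis, from 0) in the 4 tumor conditions (horizontal axis), for macrophages (red circles) and monocytes (blue squares), 1 library per point, with 95% Poisson bars for counting error. Folr2 in macrophages stands at 13, 11.9 and 11.9 in 3 libraries and at 1.35 in Aire-/- anti-PD1, and Axl in macrophages is highest at 187 in Aire+/+ anti-PD1.

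The first comparison asks how the receptors differ between genotypes without checkpoint blockade, Aire-/- over Aire+/+ under isotype antibody. None of the 6 genes with at least 50 UMIs in the pair was past 1.5-fold. Axl was higher in Aire-/- macrophages, with a ratio of 1.30 (conditional exact interval 1.22–1.39). Stab1 at 0.819 (0.737–0.908) and Mrc1 at 0.841 (0.729–0.968) were lower, and their intervals stayed below 1. Msr1 at 0.996 (0.949–1.04), Folr2 at 0.917 (0.727–1.15) and Mertk at 1.02 (0.750–1.38) had intervals that included 1. Across the 10087 genes with at least 50 UMIs, 5.14% were past 1.5-fold higher and 4.68% lower, beside 0 and 0 of the 6 receptors. The median log2 ratio of the 6 was -0.07 and that of all genes -0.05.

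The second comparison sets Aire-/- against Aire+/+ under anti-PD1, the treatment the study was built around. Folr2 and Mertk were lower in Aire-/- macrophages by more than 1.5-fold and no receptor was higher by that much. Folr2, 11.9 against 1.35 CPM, had a ratio of 0.114 (0.0306–0.298). Its log2 ratio ran from -3.49 to -2.1 under other processing settings. Mertk, 10.1 against 3.71 CPM, had a ratio of 0.369 (0.180–0.683). Stab1 at 0.688 (0.565–0.832) and Axl at 0.752 (0.676–0.835) were lower by less than 1.5-fold. With macrophage and monocyte gates together both were past 1.5-fold lower, at log2 ratios of -0.997 and -0.79. In those sums monocytes outnumbered macrophages in Aire-/- (405 and 242 cells) and not in Aire+/+ (575 and 817). For Mrc1 at 0.921 (0.728–1.15) and Msr1 at 1.05 (0.961–1.14) the intervals included 1. Among 9250 genes, 7.69% were past 1.5-fold higher and 11.2% lower, beside 0 and 2 of 6 receptors, and the median log2 ratio was -0.48 for the receptors and -0.07 for all genes. Of these genes, 0.0757% had a lower ratio than Folr2. The pair also differed in macrophage markers (8208 against 4315 CPM), in T-cell markers (19.9 against 250.5 CPM) and in depth, and the part of these in the ratios was not tested.

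In the third comparison, anti-PD1 over isotype in Aire+/+ mice, the 2 TAM kinases were higher after treatment and Msr1 was lower. Axl, 125 CPM under isotype and 187 under anti-PD1, had a ratio of 1.502 (1.42–1.59), just past the 1.5-fold line, and was the only receptor past it. Mertk had a ratio of 1.43 (1.11–1.83). Msr1 had a ratio of 0.795 (0.759–0.833). Mrc1 at 0.957 (0.847–1.08), Folr2 at 0.914 (0.741–1.12) and Stab1 at 0.925 (0.845–1.01) had intervals that included 1. Of 10214 genes, 1.94% were past 1.5-fold higher and 2.58% lower, beside 1 and 0 of the 6. The median log2 ratio was -0.09 for the receptors and -0.02 for all genes. With C1q, mitochondrial and ribosomal protein genes taken out of the denominator, Axl fell short of 1.5-fold and the count was 0. With at least 100 C1q UMIs the count stayed at 1 but the receptor past the line was Mertk, at 1.556 (1.17–2.08), with Axl at 1.374 (1.29–1.47).

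The last comparison, anti-PD1 over isotype in Aire-/- mice, gave ratios below 1 for both TAM kinases, with limits for each. Folr2 and Mertk were lower after treatment by more than 1.5-fold. Folr2, 11.9 CPM under isotype and 1.35 under anti-PD1, had a ratio of 0.113 (0.0304–0.299), and 0.0453% of all genes had a lower one. Under other processing settings its log2 ratio ran from -3.41 to -1.89. Mertk, 7.19 and 3.71 CPM from 67 and 11 UMIs, had a ratio of 0.517 (0.246–0.985). Stab1 at 0.777 (0.634–0.947), Msr1 at 0.836 (0.766–0.910) and Axl at 0.866 (0.775–0.966) were lower by less, and Mrc1 was at 1.05 (0.820–1.33). The Axl value depended on the gate, with a log2 ratio of -0.21 that became 0.07 when macrophages needed at least 20 C1q UMIs. Of 8827 genes, 4.45% were past 1.5-fold higher and 6.59% lower, beside 0 and 2 of 6, and the median log2 ratio was -0.31 for the receptors and -0.05 for all genes. With cells thinned to equal depth the count of lower genes was 1, since Mertk, at a log2 ratio of -0.31 instead of -0.95, was no longer past 1.5-fold. With macrophage and monocyte gates together Mertk also fell short, while Stab1, at a log2 ratio of -0.669, was past 1.5-fold lower. Those sums held 405 monocytes and 242 macrophages under anti-PD1, and 522 and 586 under isotype. The 4 comparisons share libraries in pairs, so their ratios stand side by side as descriptions.

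**Figure D2:**
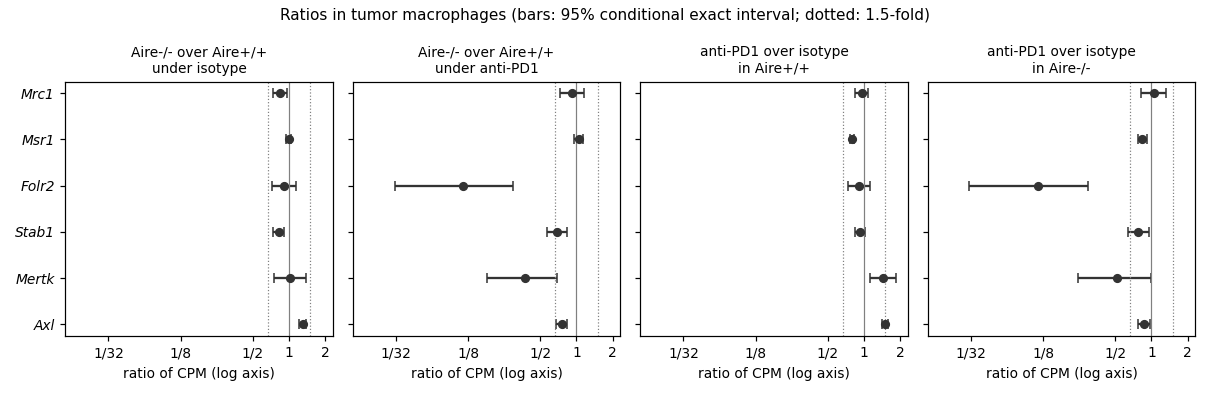
Ratios of levels in tumor macrophages (log axis, 1 panel per comparison) for 6 receptors, with bars for the 95% conditional exact interval of counting error and dotted lines at 1.5-fold in each direction. Folr2 lies at 0.114 and 0.113 in the 2 comparisons that involve the Aire-/- anti-PD1 library, and at 0.917 and 0.914 in the others.

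Tumor monocytes, which by the gate held fewer than 5 C1q UMIs, carried Msr1 at macrophage-like levels and Mrc1, Folr2, Stab1 and Axl at lower ones. Msr1 was at 299, 243, 258 and 203 CPM, and its macrophage over monocyte ratio was 0.913 (0.873–0.955), 0.895 (0.842–0.951), 1.05 (0.989–1.12) and 1.12 (1.01–1.24). Msr1 was therefore slightly higher in monocytes than in macrophages of both Aire+/+ tumors. Mrc1 in monocytes was at 13, 15.1, 8.63 and 17.6 CPM, 2.75 (2.28–3.34), 2.26 (1.82–2.83), 3.47 (2.59–4.72) and 1.79 (1.30–2.45) times higher in macrophages. Mrc1 in Aire-/- monocytes was higher under anti-PD1 than under isotype, with a ratio of 2.04 (1.42–2.94), from an isotype level that was itself lower than in Aire+/+ at 0.666 (0.477–0.920). Under anti-PD1 the genotype ratio was 1.17 (0.857–1.58). Cd163 gave 4, 1, 3 and 7 monocyte UMIs, more than in macrophages of 3 of the 4 libraries.

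Folr2, Stab1 and Axl had their lowest values in the monocytes of Aire-/- anti-PD1, and Mertk did not. The Folr2 interval overlapped those of Aire+/+ anti-PD1 and Aire-/- isotype, and the Axl value lay close to that of Aire+/+ isotype. Folr2 was at 5.48 CPM (4.13–7.13), 2.73 (1.64–4.26), 2.35 (1.32–3.88) and 0.463 (0.0560–1.67), from 55, 19, 15 and 2 UMIs. Its Aire-/- over Aire+/+ ratio was 0.430 (0.225–0.771) under isotype and 0.170 (0.0192–0.704) under anti-PD1. Folr2 was thus lower in Aire-/- monocytes under isotype, while under anti-PD1 the pair held 2 and 19 UMIs, below the 50 needed for a call. Stab1 was at 50.6, 46.8, 30.8 and 18.5 CPM, with Aire-/- over Aire+/+ ratios of 0.608 (0.513–0.718) under isotype and 0.396 (0.306–0.507) under anti-PD1. Axl was at 58.0, 93.7, 64.5 and 53.7 CPM, with anti-PD1 over isotype ratios of 1.62 (1.44–1.81) in Aire+/+ and 0.832 (0.705–0.980) in Aire-/-. Axl in monocytes thus ran in the same direction as in the whole macrophage gate in each genotype. Mertk did not in Aire-/-, where its monocyte ratio of 1.39 (0.674–2.86), from 17 and 18 UMIs, stood beside 0.517 in macrophages. In Aire+/+ the monocyte ratio of Mertk was 1.52 (0.938–2.47). Mertk was at 3.59, 5.45, 2.83 and 3.93 CPM, and its macrophage over monocyte ratio of 0.944 (0.400–2.14) in Aire-/- anti-PD1 stood beside 1.96, 1.84 and 2.54 in the other 3.

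Dendritic cells of the tumors divided the receptors by subtype. Mrc1 was found mainly in type 2 dendritic cells (55, 45, 35 and 28 cells gated on Cd209a, Flt3 and Zbtb46), at 60.6, 30.5, 70.1 and 89.4 CPM from 52, 22, 38 and 36 UMIs. On this scale the Mrc1 level of type 2 dendritic cells was above that of macrophages in 3 of the 4 libraries, though these UMIs came from only 7, 7, 11 and 6 cells. Axl was highest in mature dendritic cells, at 105, 117, 125 and 71.0 CPM, with 35.0, 87.3, 66.4 and 29.8 in type 2 and 8.62, 36.4, 55.1 and 69.5 in type 1 cells. Mature dendritic cells stayed below the macrophage Axl level of each library. Mertk gave 0 UMIs in all dendritic gates, and Folr2 gave 1, in a type 2 cell of Aire-/- isotype. Cd163 gave 4, 1, 6 and 2 UMIs in type 2 dendritic cells and 3, 1, 0 and 6 in plasmacytoid ones, so that the few dendritic cells held more of it than all tumor macrophages together. Msr1 in type 2 dendritic cells lay between 1.39 and 27.3 CPM.

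The spleen gave few C1q-positive cells, 15, 5, 5 and 6, of which 5, 1, 0 and 3 held at least 2 lymphoid UMIs. Mrc1 was at 331 CPM (30 UMIs), 1138 (16), 227 (5) and 665 (15), and Axl at 364 (33 UMIs), 1067 (15), 408 (9) and 709 (16). Both lay above their tumor macrophage levels in every condition, from at most 33 UMIs each. Cd163 gave 1, 1, 4 and 6 UMIs, Msr1 3, 0, 1 and 0, Stab1 0, 0, 0 and 1, Mertk 1, 1, 0 and 2, and Folr2 0 in all 4. Red pulp macrophage markers summed to 2955, 13374, 5668 and 5808 CPM in these cells against 212, 228, 274 and 122 CPM in tumor macrophages. T-cell markers summed to 573, 0, 0 and 1640 CPM, NK markers to 1467, 0, 0 and 0, B-cell markers to 595, 640, 136 and 133 and monocyte markers to 3705, 711, 5033 and 310, so other cells may have added to these values. Spleen monocytes (179, 123, 109 and 67 cells) held Msr1 at 54.4, 47.4, 56.1 and 39.7 CPM, well below tumor monocytes, and Mertk at 0 UMIs.

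Tumor macrophages were next divided by their C1q level, at 20 and 100 C1q UMIs. Folr2 in macrophages with at least 100 C1q UMIs was at 13.3, 13.3 and 11.9 CPM in the first 3 libraries and at 0 UMIs in the 74 such cells of Aire-/- anti-PD1, which allows up to 3.22 CPM. The low Folr2 of that library was therefore also present among its cells richest in C1q. With 20 to 99 C1q UMIs Folr2 was at 14.4, 10.0, 8.45 and 2.75 CPM, the last from 3 UMIs, and the Aire-/- over Aire+/+ ratio under anti-PD1 was 0.274 (0.0531–0.895). With 5 to 19 C1q UMIs Folr2 was at 4.55, 2.27, 19.1 and 1.38 CPM from 6, 2, 20 and 1 UMIs, the 20 lying in 6 cells. Its Aire-/- over Aire+/+ ratio in that range was 4.21 (1.63–12.8) under isotype and 0.609 (0.0103–11.7) under anti-PD1, from too few cells to compare genotypes. Axl was at 94.7, 139, 164 and 48.3 CPM with 5 to 19 C1q UMIs, at 97.8, 200, 119 and 188 with 20 to 99, and at 137, 188, 177 and 154 with at least 100. The anti-PD1 over isotype ratio of Axl in Aire-/- macrophages was accordingly 0.294 (0.198–0.424), 1.58 (1.31–1.91) and 0.871 (0.739–1.02) over the 3 ranges, with a change of direction between the first and the second. For Mertk it was 0.240 (0.00523–1.98), 1.12 (0.240–4.39) and 0.596 (0.209–1.38), from at most 6 UMIs per range under anti-PD1, and every interval included 1.

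Folr2-bearing macrophages were rich in Mrc1. Cells with at least 2 Folr2 UMIs (52, 29 and 23 cells in the first 3 libraries and none in Aire-/- anti-PD1) held Mrc1 at 80.8, 76.5 and 98.1 CPM, against 32.7, 30.1 and 25.0 in cells with none. They also held Pf4, a platelet-factor chemokine gene of resident-type macrophages, at 457, 214 and 299 CPM against 147, 91.8 and 60.5. Axl was lower in them, at 66.1, 149 and 103 CPM against 127, 191 and 164. The MHC class II gene H2-Ab1 was at 910.1, 1087 and 1543 CPM against 3121, 3490 and 4533. In thinned cells Mrc1 was detected in 8 of 37, 2 of 21 and 3 of 16 Folr2-positive macrophages of these libraries (21.6%, 9.52% and 18.75%) and in 6.08%, 6.66% and 5.44% of the others. Cells with at least 5 Mrc1 UMIs (37, 21, 17 and 6 cells) held Folr2 at 17, 29.1 and 41.9 CPM in the first 3 libraries. In Aire-/- anti-PD1 the 6 cells held 0 UMIs of it, too few cells to set their level apart from the others.

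Summed over whole tumor libraries, the receptors also carry the change in cell composition. Folr2 was at 8.32, 6.68, 5.64 and 0.258 CPM, and the Aire-/- over Aire+/+ ratio under anti-PD1 was 0.0386 (0.0140–0.0856). Stab1 was at 49.5, 42.1, 31.3 and 9.71 CPM with a ratio of 0.230 (0.199–0.266), and Mertk at 4.52, 6.19, 3.82 and 1.20 CPM with 0.194 (0.126–0.291). Axl at 0.345 (0.321–0.371), Msr1 at 0.427 (0.403–0.452) and Mrc1 at 0.439 (0.373–0.515) were lower as well. These 6 were thus lower per tumor leukocyte UMI in Aire-/- than in Aire+/+ under anti-PD1, including Mrc1 and Msr1, whose macrophage ratios had intervals that included 1. All 6 were past 1.5-fold, beside 10.9% of 11376 genes lower by that much. Under isotype Stab1 at 0.633 (0.582–0.688), Folr2 at 0.678 (0.552–0.829), Mrc1 at 0.694 (0.616–0.782) and Msr1 at 0.798 (0.769–0.827) were already lower in Aire-/-, with Mertk at 0.844 (0.650–1.09) and Axl at 1.06 (1.003–1.12). Cd163 went the other way, with 15 UMIs against 5 and a ratio of 3.71 (1.28–13), from fewer than 50 UMIs over the pair. The macrophage gate held 75.2%, 73.8%, 69.9% and 44.5% of Mrc1 UMIs, 59.7%, 57.9%, 57.3% and 40.8% of Msr1 UMIs and 70.5%, 68.8%, 66.7% and 43.1% of Axl UMIs. T cells held 2.98%, 1.73%, 3.30% and 16.7% of Axl UMIs. In Aire-/- anti-PD1 more than 1 in 2 UMIs of Mrc1, Msr1, Axl and Mertk therefore lay outside the macrophage gate, while 66.7% of the 6 Folr2 UMIs lay inside it.

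Other genes of related function were listed to set the receptors in context, counted past 1.5-fold in macrophages over the 4 comparisons in the order given above. Of all genes tested, 5.14%, 7.69%, 1.94% and 4.45% were higher and 4.68%, 11.2%, 2.58% and 6.59% lower. Of 11 other scavenger receptors tested, 0, 1, 0 and 0 were higher and 0, 1, 0 and 1 lower, with median log2 ratios of -0.04, -0.23, 0.05 and -0.18. The lower one was Siglec1, a sialic-acid-binding receptor, at 0.513 for Aire-/- over Aire+/+ under anti-PD1 and 0.576 for anti-PD1 over isotype in Aire-/-, and the higher one was Clec7a, the beta-glucan receptor dectin-1, at 1.51. With 1 of 11 on each side under anti-PD1, these receptors as a group did not stand out from the shares over all genes. Of 11 genes of TAM signaling and engulfment tested (10 in the last comparison), 1 was higher in each comparison and 2, 1, 1 and 0 lower, with medians of -0.01, -0.37, 0.25 and -0.13. Pros1, a TAM ligand, was the higher one between genotypes, at 1.94 under isotype and 1.93 under anti-PD1. Of 7 folate and haem genes tested (6 in the last), 0, 1, 0 and 0 were higher and 0, 2, 1 and 1 lower, with medians of -0.03, -0.19, -0.05 and -0.08. Slc46a1, the proton-coupled folate transporter, was at 0.421 and Hmox1, haem oxygenase, at 0.505 for Aire-/- over Aire+/+ under anti-PD1.

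Interferon-gamma response genes were higher in Aire-/- macrophages under both antibodies. Of 11 tested, 8, 9, 1 and 1 were higher and none lower, beside 5.14%, 7.69%, 1.94% and 4.45% of all genes higher, with medians of 0.84, 1.03, -0.08 and 0.32. Of the genes of alternative activation and resident-type macrophages, 15, 13, 15 and 12 were tested, 0, 0, 2 and 0 were higher and 3, 5, 1 and 4 lower, beside 4.68%, 11.2%, 2.58% and 6.59% of all genes lower, with medians of 0.00, -0.51, -0.10 and -0.30. Pf4 was at 187, 112, 75.3 and 20.9 CPM, falling in the order of the libraries. Of 8 macrophage genes, none were higher and 1, 5, 0 and 2 lower, with medians of -0.24, -0.94, 0.09 and -0.44. Among these Apoe was at 3709 and 1469 CPM under anti-PD1, a ratio of 0.396. Folr2 and Mertk were thus lower beside macrophage and resident-type genes in the 2 comparisons that involve the Aire-/- anti-PD1 library, and the part of one in the other was not tested.

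Marker lists of other cells were counted in the same way, beside the same shares over all genes (5.14%, 7.69%, 1.94% and 4.45% higher and 4.68%, 11.2%, 2.58% and 6.59% lower). Of 9 monocyte markers (8 tested in the second and the last comparison), 3, 4, 0 and 2 were higher and 1, 0, 2 and 1 lower, with medians of 0.34, 0.66, 0.04 and 0.20. Of 4 T-cell markers, 1, 4, 0 and 4 were higher, with medians of 0.56, 3.62, -1.47 and 1.63, and all 3 tested in the third comparison were lower. The NK marker tested was higher in 3 comparisons, with log2 ratios of 1.27, 4.36, 0.27 and 3.36. T-cell and NK log2 ratios were therefore highest in the second and the last comparison, in which Folr2 and Mertk were lower. The part of one in the other was not tested. Of 3 neutrophil markers tested, none were higher and 0, 1, 1 and 2 lower. The B-cell marker tested was lower in the second comparison, at -0.73. Of 2 endothelial markers tested, 2, 1, 1 and 0 were higher and 1 was lower in the last. Of the fibroblast markers 1 gene reached 50 UMIs, in the third comparison, and of the epithelial tumor markers none did.

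Across 42 sums of cells by gate and library, the 11064 genes with enough UMIs were ordered by Pearson's r with each receptor on log2 CPM. These sums share libraries and cell types, so r is a description. Closest to Folr2 were AU022793 (0.965), Pf4 (0.926) and Tmem119 (0.923), and closest to Stab1 were C3ar1 (0.987), Ccl12 (0.980) and Ccl7 (0.968). Msr1 ran closest to Ankrd66 (0.957) and Trem2 (0.954), and Mrc1 to Clec4b1 (0.888), Ocstamp (0.858) and Dab2 (0.855). The TAM kinases had separate neighbours, with Cd276 (0.961), Tmem119 (0.957) and Lhfpl2 (0.955) for Mertk and Cxcl16 (0.955), Il18bp (0.948) and Creb5 (0.948) for Axl. Folr2 and Mertk thus had Tmem119 in common. Cd163 had too few UMIs to be ordered.

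The 7 genes lie at 7 places of the genome build GRCm38.p6, with no 2 next to each other. Mrc1 is at chr2:14229414-14332023 (+) and Mertk at chr2:128698915-128803162 (+), Folr2 at chr7:101839988-101857190 (-) and Axl at chr7:25756500-25788924 (-). Msr1 is at chr8:39543232-39642750 (-), Cd163 at chr6:124304636-124330529 (+) and Stab1 at chr14:31139017-31168651 (-). The promoter windows of RefSeq (300 bases each, GRCm38.p6) were searched on both strands for GAGGAA, reverse complement TTCCTC, the core letters of the PU box of myeloid genes. Of the 7 genes 6 had a window, and 3 of these held the letters, beside 9289 of all 32851 windows (28.3%). Mrc1 (chr2:14229164-14229463, + strand) held 3 matches on the reverse strand, Stab1 (chr14:31168592-31168891, - strand) 1 on the forward strand and Axl 1 on the reverse strand, while Folr2 with 2 windows, Mertk and Cd163 held none. The windows of Mrc1 and Stab1, the genes with most reverse and with forward matches, were chosen for display once the matches had been counted, and capitals mark the matching letters. A match is a description of letters and names no bound factor.
Mrc1: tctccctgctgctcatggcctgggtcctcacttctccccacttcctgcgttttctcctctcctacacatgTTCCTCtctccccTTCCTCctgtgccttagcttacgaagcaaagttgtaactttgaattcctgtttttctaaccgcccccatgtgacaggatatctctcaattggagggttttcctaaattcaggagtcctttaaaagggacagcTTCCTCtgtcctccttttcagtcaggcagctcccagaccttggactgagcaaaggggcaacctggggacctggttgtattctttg
Stab1: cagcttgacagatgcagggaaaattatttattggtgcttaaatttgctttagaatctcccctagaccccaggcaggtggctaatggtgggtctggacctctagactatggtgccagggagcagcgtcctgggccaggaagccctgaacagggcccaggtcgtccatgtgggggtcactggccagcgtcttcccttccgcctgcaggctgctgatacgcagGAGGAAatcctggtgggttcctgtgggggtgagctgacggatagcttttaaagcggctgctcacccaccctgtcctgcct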

How the data were processed

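CD45+ cells of tumors and spleens had been run on a droplet platform that counts 3′ ends of transcripts, and Cell Ranger had assigned reads to the mouse build GRCm38 per the submitters' notes. The deposited tables held raw UMI counts per gene and cell, which the authors had not normalized. The 25127 rows were summed by the gene symbol that opens each row name to 24495 symbols. Cells with at least 200 genes and at most 20% mitochondrial UMIs were kept.

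Gates were applied in turn to all 8 libraries, each cell going to the first it met: macrophages (C1qa, C1qb and C1qc, at least 5 UMIs), lymphoid cells (at least 2 UMIs of Cd3, Cd79 and Ncr1 genes), plasmacytoid dendritic cells (Siglech, at least 3), neutrophils, mature dendritic cells (Fscn1, Ccl22 and Ccr7, at least 3), type 1 (Xcr1 and Clec9a, at least 2) and type 2 dendritic cells (Cd209a, Flt3 and Zbtb46, at least 2, with H2-Ab1 at least 10) and monocytes (Lyz2 at least 5 with at least 2 UMIs of monocyte genes). No doublet caller was run, and alternatives left out macrophages with at least 2 lymphoid UMIs and the 5% of cells with most UMIs. UMIs were summed over the cells of a gate and divided by all their UMIs. Shares of cells were also taken after thinning to 3000 UMIs per cell.

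With 1 library per condition and tissue no test was made, and a gene was counted as higher or lower by a ratio of 1.5 alone, among genes with at least 50 UMIs over the pair. Intervals are at 95% (exact Poisson for levels, Clopper-Pearson for shares, conditional exact for ratios) and cover counting error only. A count of 0 was given an upper limit of 3 counts for shares of cells with a detected UMI. Up to 3 genes most like each receptor were named by Pearson's r over sums of at least 20 cells on log2 of CPM plus 10, for genes with at least 200 UMIs. The members and gene lists were chosen with earlier results of these data known. A planned division of tumor macrophages by 2 further genes, and single values of some listed genes, are not reported here. The interval and ratio functions were tested on simulated data. Python 3.11.15, numpy 2.4.6, scipy 1.17.1, pandas 2.3.3 and matplotlib 3.10.9 were used.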

Additional observations from a re-analysis of the deposited data

Results flagged for a closer look

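The TAM kinases Mertk and Axl stood out because their anti-PD1 over isotype ratios in tumor macrophages pointed in opposite directions in the 2 genotypes. For Mertk the log2 ratio was 0.51 in Aire+/+ and -0.95 in Aire-/- macrophages. The Aire-/- value, from 11 UMIs under anti-PD1 and 67 under isotype, shrank to -0.31 in thinned cells. Both directions held in 11 of 11 alternatives. By C1q range (5 to 19, 20 to 99, at least 100 UMIs) the Mertk ratios were 1.495, 0.987 and 1.556 in Aire+/+ and 0.240, 1.12 and 0.596 in Aire-/-, and only the third Aire+/+ interval (1.17–2.08) excluded 1. For Axl the log2 ratio was 0.59 in Aire+/+ and -0.21 in Aire-/- macrophages. The Aire-/- value of Axl turned to 0.07 when macrophages needed at least 20 C1q UMIs. With 20 to 99 C1q UMIs Axl was higher under anti-PD1 in both genotypes. It went from 97.8 to 200 CPM in Aire+/+ and from 119 to 188 in Aire-/-. In the ranges below and above, Axl was lower under anti-PD1 in Aire-/- only. In monocytes the Mertk ratios were 1.52 (0.938–2.47) in Aire+/+ and 1.39 (0.674–2.86) in Aire-/-, not opposite, and those of Axl 1.62 and 0.832. The difference between genotypes was not tested, since each condition had 1 library.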

How the results depend on the processing

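Over 9 other settings and 2 more chosen after seeing the data (macrophage and monocyte gates together, and at least 100 C1q UMIs), no median or count of the receptors changed direction. In the last comparison the count of lower receptors was 1 with thinned cells instead of 2. In the third the count of higher receptors was 0 instead of 1 without C1q, mitochondrial and ribosomal protein genes in the denominator. With both gates together the second comparison had a median log2 ratio of -0.89 instead of -0.48 and a count of 4 instead of 2. The share over all genes at that setting is not given, so the count cannot be set against it. The mix of cells also differed there, with 817 macrophages and 575 monocytes in Aire+/+ and 242 and 405 in Aire-/-. Its part in the larger count was not tested. Folr2 was past 1.5-fold lower in 11 of 11 alternatives in the second comparison (-3.49 to -2.10) and in the last (-3.41 to -1.89). Mertk was so in 11 of 11 (-1.65 to -1.0) and 9 of 11 (-1.0 to -0.31), and Axl was past 1.5-fold higher in 9 of 11 in the third (0.46 to 0.75). Mrc1 in the second ranged from -0.49 to 0.34, and Axl in the last from -0.46 to 0.07. Of the values of single receptors, 241 ratios, 93 levels and 6 shares stayed within the counting interval and 23, 19 and 22 moved. No paired analysis was possible because each condition had 1 library of pooled mice. The values hold for these pools alone: condition, library, depth and macrophage yield cannot be told apart, the 242 macrophages of Aire-/- anti-PD1 hold the fewest UMIs, and RNA carried over between droplets was not modeled.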

Other observations

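Axl UMIs were also found in tumor T cells, a group picked out after the values had been seen. T cells with UMIs of Foxp3, the regulatory T-cell factor (144, 93, 41 and 86 cells) held Axl at 47.1 CPM (37.0–59.2), 35.9 (25.0–50), 42.4 (25.6–66.3) and 59.5 (44.0–78.7). T cells with Cd8 UMIs and none of Foxp3 or Cd4 held it at 12.7, 10.2, 16.5 and 11.9 CPM. Axl was thus higher in Foxp3-positive cells of all 4 tumors, but so was Stab1, as were Msr1 and Lyz2 in the first 3. Stab1 was at 18.5, 18.5, 4.47 and 4.86 CPM in Foxp3-positive against 2.12, 0.485, 2.07 and 0.137 in Cd8 cells, Msr1 at 24.8, 12.3, 22.3 and 0 against 16.2, 2.42, 8.26 and 2.197, and Lyz2 at 201, 717, 51.4 and 3.64 against 136, 216, 42.6 and 93.5. Several of these rest on few cells. In Aire-/- isotype the Foxp3-positive values of Msr1 (10 UMIs) and Stab1 (2 UMIs) each came from 1 cell, and the intervals of Msr1, Stab1 and Lyz2 overlapped those of Cd8 cells. The Msr1 intervals also overlapped in Aire+/+ isotype (17.7–34.0 and 10.3–24.4), and in Aire+/+ anti-PD1 the 12 Msr1 UMIs came from 2 cells. In T cells without Lyz2 or C1q UMIs Axl was at 24.1, 16.4, 19.6 and 15.2 CPM and Msr1 at 1.51, 0.746, 1.03 and 0.129 CPM. The ratio of Axl to Msr1 was 1.33, 3.16, 1.70 and 7.36 in T cells and 0.456, 0.862, 0.598 and 0.620 in macrophages. It was higher than in T cells in mature dendritic cells, at 12.75, 5.89, 32.7 and 12.5. On few UMIs it was 3.5, 1, 0.143 and 4.33 in NK cells and 0.667, 0, 0.75 and 0.5 in B cells. A high ratio is thus not particular to T cells. The origin of these Axl UMIs was not tested.

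In the first 3 tumor libraries, cells with at least 5 Mrc1 UMIs held the lectin genes Mgl2 and Clec10a at higher levels than macrophages with no Mrc1 UMI. In Aire-/- anti-PD1 the 6 cells with at least 5 Mrc1 UMIs held 0 UMIs of both (upper bound 46.4 CPM for each). That bound is too wide to set these cells apart from those of the other libraries. Mgl2 was at 30.1, 47.6 and 47.4 CPM against 15.3, 8.06 and 8.14 in the first 3 tumor libraries. These Mgl2 UMIs came from only 4, 3 and 3 cells. Clec10a was at 20.9, 34.4 and 19.5 CPM against 6.18, 4.81 and 5.47. The chemokine gene Ccl24 gave 41, 407, 11 and 1 UMIs in tumor macrophages, with most in Aire+/+ anti-PD1. These are raw counts out of 19183839, 12733120, 9321955 and 2962501 macrophage UMIs. The number of cells that held them is not given.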
